A study of Rattus norvegicus with 10 samples.

Results

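Short regions that nevertheless drew many tags were examined in methylated DNA captured from the hippocampus of rats with or without a traumatic brain injury (TBI). A compact strong region was an autosomal region (chr1 to chr20) of 400 bp or less whose mean level was 1.5 CPM or more. CPM is the number of tags in a region per 1000000 tags of that library in all regions of the matrix. The mean was taken over 9 rats, without sham rat 5. Of 716492 regions, 730 met both limits (0.102%). They made up 0.389% of the 187878 autosomal regions at or above 1.5 CPM and 0.494% of the 147632 autosomal regions of 400 bp or less.

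The animals were adult male Sprague-Dawley rats, an outbred strain, so that rats differ in sequence as well as in treatment. Every animal was anesthetized and had part of the skull over the left hemisphere removed. Lateral fluid percussion, a pressure pulse delivered to the intact dura, was given to the TBI rats alone. Tissue holding the CA3 field and the dentate gyrus of the left hippocampus, labelled as dorsal hippocampus, was taken after 3 months from 5 sham-operated rats (sham 1 to sham 5) and 5 TBI rats (TBI 1 to TBI 5), with 1 library from each rat. The tissue is a mixture of neurons, glia and other cells, so that a change in cell make-up and a change in methylation per cell cannot be told apart.

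In mammals most DNA methylation lies on cytosines of CpG dinucleotides. Methyl-CpG-binding domain (MBD) proteins hold double-stranded DNA that carries such sites, and in MBD sequencing the captured fragments are counted along the genome. The count of a region rises with the number of methylated CpG sites in it, and also with the length over which fragments can fall. A short region with a high count is therefore a place where captured fragments pile up within about the length of a fragment. Here DNA was broken to a median of 200 to 300 bp before capture and read for 36 bp from 1 end. The coordinates are those of the RN4 assembly as deposited, and whether they count from 0 or from 1 is not stated. Neither gene annotation nor sequence of that assembly was used here, so neither is given.

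The library of sham rat 5 stood apart from the other 9, and results that rest on it are given with and without it. The study's methods list fewer sham rats for methylation than the matrix has sham columns, and do not state which rat, if any, was left out. Libraries held between 13597924 and 21672940 tags, and sham 5, with 18584214 tags, was within this range. Across the 730 regions, Pearson's r of log2 CPM between sham 5 and another rat lay from 0.441 to 0.66 (9 pairs). Among the other 9 rats it lay from 0.516 to 0.734 (36 pairs). These are correlations over regions that share their libraries, given as a description.

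The compact strong regions were crowded against both limits that chose them. Their lengths ran from 184 to 400 bp, with a median of 378 bp and quartiles of 361 and 390 bp. Only 22 of them (3.01%) were 300 bp or less. The median length of all regions was 573 bp. The mean level over the 9 rats ran from 1.5 to 47.3 CPM with a median of 1.76 CPM. A level of at least 2 CPM was found in 183 regions (25.1%), of at least 5 CPM in 17 (2.33%) and of at least 10 CPM in 6 (0.822%). The median region drew 29.9 tags per rat, and a small number of regions stood far above it. On chromosome X, 9 regions among 7062 met both limits and were left out because the rule takes autosomes.

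The regions nearest to the limits differed little across them. Just inside the limit of length were chr1:78263168-78263568, 400 bp long with 2.064 CPM, and chr1:130748314-130748714, 400 bp long with 2.257 CPM. Just outside were chr2:182160204-182160605, 401 bp long with 2.251 CPM, and chr3:43939197-43939598, 401 bp long with 1.58 CPM. At the limit of level, chr1:33138413-33138793 and chr1:58864773-58865094 stood inside with 1.501 CPM each. The regions chr5:66163758-66164053 and chr3:62183965-62184361 stood outside with 1.499 CPM each. The shortest of all was chr1:47910768-47910952, 184 bp long with 1.534 CPM, and the next was chr5:148035785-148036050, 265 bp long with 3.051 CPM.

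**Figure D1:**
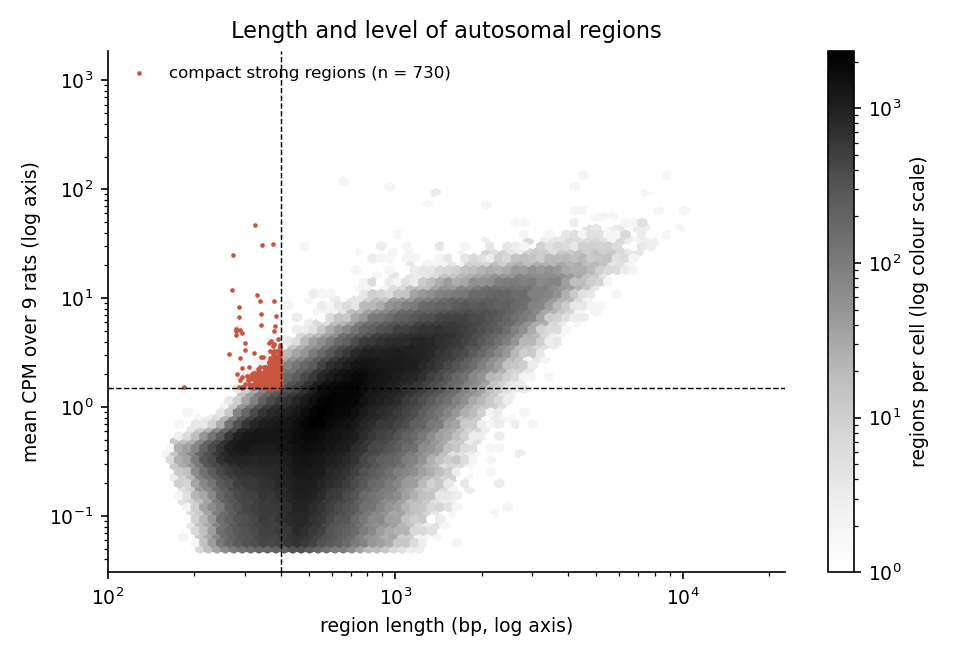
Length (bp, log axis) against mean CPM over 9 rats (log axis) of autosomal regions of at least 0.05 CPM, with grey cells shaded by the number of regions. The 730 compact strong regions (red points) fill the corner left of 400 bp and above 1.5 CPM (dashed lines), and most of them sit close to both limits.

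For comparison, longer regions of the same level were taken. These were the 70555 autosomal regions over 400 bp whose mean level over the 9 rats was from 1.5 to 2.35 CPM, the 90th percentile of the compact strong regions. Their median length was 789 bp. Per kb of length the compact strong regions had a median of 4.76 CPM and the longer regions 2.34 CPM, a difference that follows from the rule. The 657 compact strong regions within this range of level had a median of 4.65 CPM per kb. They were used for the spread between rats and for the classes of length. Other comparisons with the longer regions took all compact strong regions, which reached 47.3 CPM. In those comparisons the upper end of the level was not matched.

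Packing of tags was measured against the number of places where a read can start, which is the length counted on both strands. The median compact strong region had 4.08 tags per 100 start positions and the longer regions of the same level had 1.96. Tags and length also chose the regions, so this difference again follows from the rule. In 4 regions, at least 1 rat had more tags than there were start positions, which made 12 of 7300 values. Among the longer regions of the same level, whose mean level could not exceed 2.35 CPM, the highest value was 31.9 tags per 100 positions. Among all 187148 longer regions at or above 1.5 CPM, 280 values in 40 regions exceeded 100 tags per 100 positions. With 72 bp added to each length, for reads that overlap an end in part, 6 values in 2 compact strong regions remained above 100. The authors' methods state that duplicate reads at a location were removed. What gave more tags than start positions was not tested.

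These 4 crowded regions were also the strongest by level. Both measures rest on the same tag counts and lengths varied little, so this is not a second observation. The strongest, chr9:13556984-13557308, was 324 bp long with 648 start positions and a mean of 47.3 CPM. It held 697, 428, 1277, 1230 and 385 tags in sham 1 to sham 5. In TBI 1 to TBI 5 it held 601, 545, 1207, 643 and 1174 tags. The count exceeded the number of positions in 5 rats, and the ranges of both groups overlapped over most of their width. After scaling of each library by the trimmed mean of M values (TMM) sham rats had a mean of 50.2 ± 19.5 CPM and TBI rats one of 49.0 ± 11.4 CPM (SD over 5 rats each). The log2 fold change, positive where TBI rats were higher, was -0.03 ± 0.23 (SE) with all rats and -0.20 ± 0.16 without sham 5. Neither passed the test (adjusted p = 1 and adjusted p = 0.996, quasi-likelihood test of edgeR, Benjamini-Hochberg adjustment).

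The second strongest, chr2:140488229-140488604, was 375 bp long with 31.5 CPM. It held 514, 276, 769, 882 and 141 tags in the sham rats and 418, 448, 704, 512 and 582 tags in the TBI rats. Sham 5 was lowest and sham 2 next, while the TBI rats lay between sham 2 and sham 3 on the CPM scale. The third, chr14:36349143-36349487, was 344 bp long with 30.7 CPM. Its tags were 611, 312, 648, 737 and 305 in the sham rats and 513, 361, 598, 291 and 831 in the TBI rats. On the CPM scale TBI 4 was lowest and sham 1 highest. Log2 fold changes with all rats were -0.02 ± 0.28 and -0.12 ± 0.24 (SE).

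On chr17, 2 of the strongest regions were highest in the same rats. The fourth strongest, chr17:15069599-15069871, was 272 bp long with 24.7 CPM. Its tags were 788, 266, 299, 288 and 123 in sham 1 to sham 5 and 658, 174, 299, 214 and 709 in TBI 1 to TBI 5. Sham 1, TBI 1 and TBI 5 stood above the rest, with scaled values of 64.5, 51.9 and 36.7 CPM. The other 7 rats lay between 8.34 and 20.5 CPM. The fifth strongest, chr17:62920660-62920931, was 271 bp long with 11.9 CPM. Its tags were 323, 198, 149, 99 and 99 in the sham rats and 326, 82, 140, 111 and 344 in the TBI rats. Again sham 1, TBI 1 and TBI 5 were highest, with sham 2 between them and the remaining rats.

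This division of the rats did not follow treatment, as 1 sham rat and 2 TBI rats were high. Within groups the SD of log2 CPM over the 9 rats was 0.962 at the first region and 0.979 at the second, whereas counting error alone gives 0.0712 and 0.103. The nearest neighbour of the first, chr17:15070077-15071840, lies 206 bp away and held 85, 72, 106, 121 and 76 tags in the sham rats and 76, 89, 102, 110 and 125 in the TBI rats. There sham 1, TBI 1 and TBI 5 did not stand apart from sham 4 and TBI 2 on the CPM scale. The nearest neighbour of the second, 576 bp away, held 7 tags in sham 5, 1 in TBI 2 and 0 in the other 8 rats. Among the 22 compact strong regions with a range of 4-fold or more over the 9 rats, sham 1, TBI 1 and TBI 5 were the 3 highest in 3. The third was chr2:105658060-105658396, with 30, 8, 37, 11 and 17 tags in the sham rats and 41, 19, 39, 21 and 48 in the TBI rats. These 3 rats were picked after their values were seen.

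The widest range was at the start of chromosome 12. The region chr12:22874-23162, 288 bp long with a mean of 2.81 CPM, held 81, 2, 0, 129 and 0 tags in sham 1 to sham 5. In TBI 1 to TBI 5 it held 133, 0, 0, 1 and 70 tags. Sham 1, sham 4, TBI 1 and TBI 5 therefore had 70 tags or more, and the other 6 had 2 or fewer. A count of 0 allows up to 3 tags, which is 0.144 CPM in sham 3, 0.161 in sham 5, 0.197 in TBI 2 and 0.138 in TBI 3. The neighbouring region chr12:21248-21408, 1466 bp away, held 13 and 9 tags in sham 1 and sham 4, 6 tags each in TBI 1 and TBI 5, and 0 in the other 6 rats. Both regions were thus present in the same 4 rats. The within-group SD at the first was 3.05 on the log2 scale, the highest of the 730, and the log2 fold change was -0.04 ± 1.02 (SE).

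Of the remaining regions among the 8 strongest, chr1:71714506-71714836 had 10.8 CPM and held 146, 90, 237, 376 and 65 tags in the sham rats and 119, 129, 257, 162 and 275 in the TBI rats. The region chr1:237781292-237781671 had 9.44 CPM, with 149, 101, 212, 271 and 56 tags in the sham rats and 99, 135, 235, 203 and 129 in the TBI rats. In both, sham 5 was lowest and sham 4 highest on the CPM scale. The eighth, chr4:75840210-75840549, was among the steadiest. Its tags were 108, 136, 199, 197 and 119 in the sham rats and 152, 140, 212, 169 and 190 in the TBI rats. The within-group SD was 0.127 on the log2 scale, against 0.112 from counting alone, and sham 5 was again lowest.

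**Figure D2:**
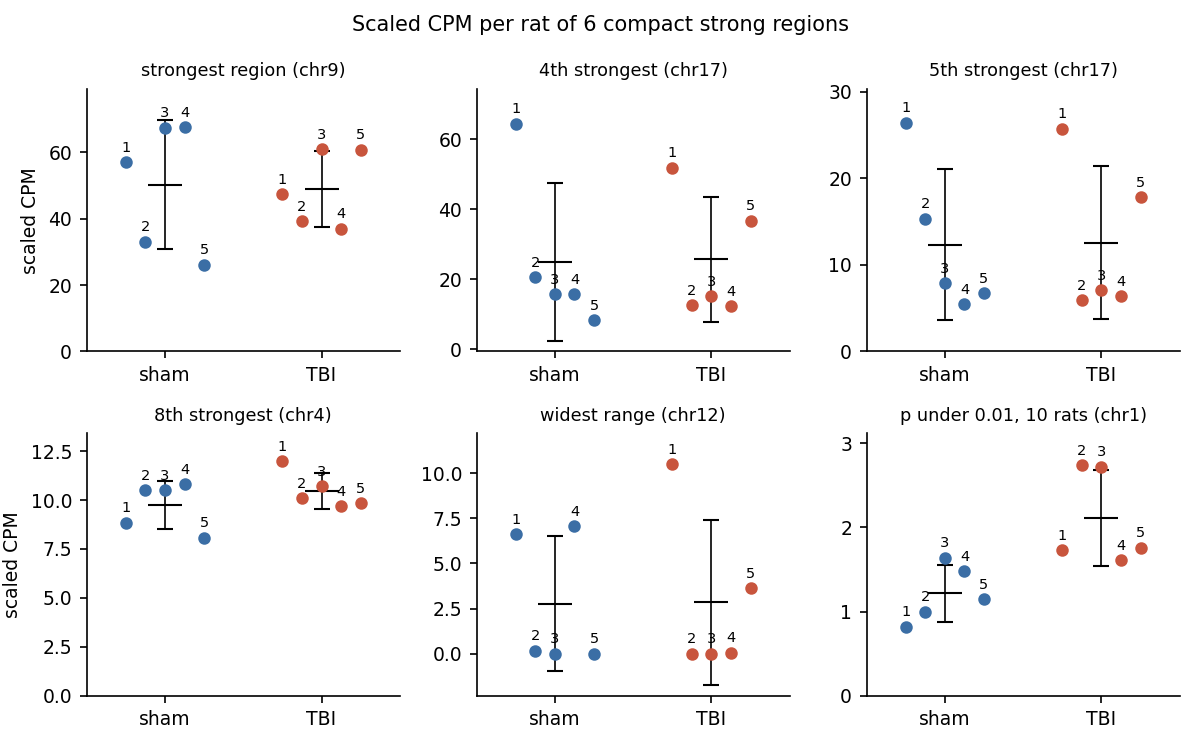
Scaled CPM (linear axis) of each rat, numbered within its group, at 6 compact strong regions, with sham in blue and TBI in red. Black bars are the mean and SD (n = 5). At the fourth and the fifth strongest region sham 1, TBI 1 and TBI 5 stand above the others, at the region of widest range 4 rats are high and 6 are near 0, and at the eighth strongest all rats lie close together.

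Between rats, the compact strong regions varied more than longer regions of the same level. Both sets were chosen by their level over the same 9 rats, and a few high rats can carry a region past the limit. The authors also formed the regions from differences between pairs of these libraries. The spread is therefore independent neither of the rule nor of how the regions were found, and is given as a description. The median within-group SD of log2 CPM over the 9 rats was 0.357 for the 657 regions of the shared range of level and 0.32 for the longer regions. Counting error alone gives a median of 0.261 and 0.251. With sham 5 included the medians were 0.444 and 0.352. A range of 4-fold or more over the 9 rats was seen in 2.59% of the former and 1.1% of the latter. Over all 730 regions the median SD was 0.359 with quartiles of 0.284 and 0.438, and 1 region had an SD of 1 or more.

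The 22 regions of 4-fold range had no single pattern of rats, and those given here were chosen after their values were seen. Sham 4 was highest at chr15:30179589-30179932, with 78 tags against 5 in TBI 1 and 14 in sham 5, and between 18 and 47 in the others. TBI 4 stood out at chr8:60641083-60641423, with 140 tags, and at chr2:234226657-234227012, with 95 tags. On the CPM scale the next highest at both was sham 2, with 65 and 48 tags, and sham 5 was lowest, with 9 and 4 tags. The shortest region, chr1:47910768-47910952, was also among the 22, with 25, 7, 31, 52 and 10 tags in the sham rats and 22, 32, 19, 31 and 27 in the TBI rats. The steadiest were chr16:36076074-36076436, with 19 to 35 tags in every rat, and chr2:231133734-231134122, with 14 to 35 tags.

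How much of each library fell into the compact strong regions was then compared. The 730 regions took 0.177%, 0.131%, 0.162%, 0.177% and 0.0765% of all tags in sham 1 to sham 5. In TBI 1 to TBI 5 they took 0.155%, 0.162%, 0.153%, 0.146% and 0.148%. The TBI rats lay close together, inside a range set by the sham rats. Sham rats averaged 0.145% ± 0.0425 and TBI rats 0.153% ± 0.0063 (SD over 5 rats each). Without sham 5 the sham mean was 0.162% ± 0.0217 (SD, n = 4), which placed it above the TBI mean, so that the sign of the difference turned with 1 rat. In both cases the difference was smaller than the SD between sham rats. Longer regions of the same level took 12.2% of the tags of sham 5 and between 13.0% and 13.4% in the other rats. Of the tags in tested regions alone, the 730 regions held 0.1% in sham 5 and between 0.149% and 0.191% in the other rats.

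Each rat was also set against the mean of the other 9, with the regions chosen again on those 9 so that a rat did not take part in its own choice. The ratio was computed as log2 of CPM plus 0.5. Sham 5, which the rule had not used, had a median ratio of -0.76 with quartiles of -1.03 and -0.51. It lay above the other rats in 19 of 730 regions (2.6%). It was the lowest of the 10 rats in 529 of 730 regions (72.5%), compared with 31% of the longer regions. By level, the median ratio was -0.70 in the 547 regions from 1.5 to 2 CPM, -0.97 in the 166 from 2 to 5 CPM and -0.97 in the 17 at 5 CPM or more. In this last class the ratio lay between -2.0 and -0.27.

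The other rats moved less. Sham 2 had a median ratio of -0.22, with 28.1% of regions above the other rats. Sham 4 had 0.16 and 68.8%, sham 1 had 0.12 and 63.3%, and sham 3 had 0.07 and 60.5%. TBI rats lay from -0.09 in TBI 5 to 0.09 in TBI 2. In longer regions of the same level the ratios were from -0.05 to 0.01 in these 9 rats and -0.19 in sham 5. The widest departures in both directions were thus those of sham rats, and all 5 TBI rats lay between sham 2 and sham 1.

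The extremes of sham 5 can be seen in single regions. After the chr12 region, its lowest ratio was -2.0 at chr18:38794679-38795063, where it held 25 tags and the other sham rats 150, 59, 93 and 216. The TBI rats held 107, 126, 178, 82 and 69 tags there. Its highest ratios were 0.52 at chr4:182460776-182461173, with 47 tags against 13 to 48 in the others, and 0.48 at chr3:160545152-160545487, with 51 tags against 18 to 65.

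**Figure D3:**
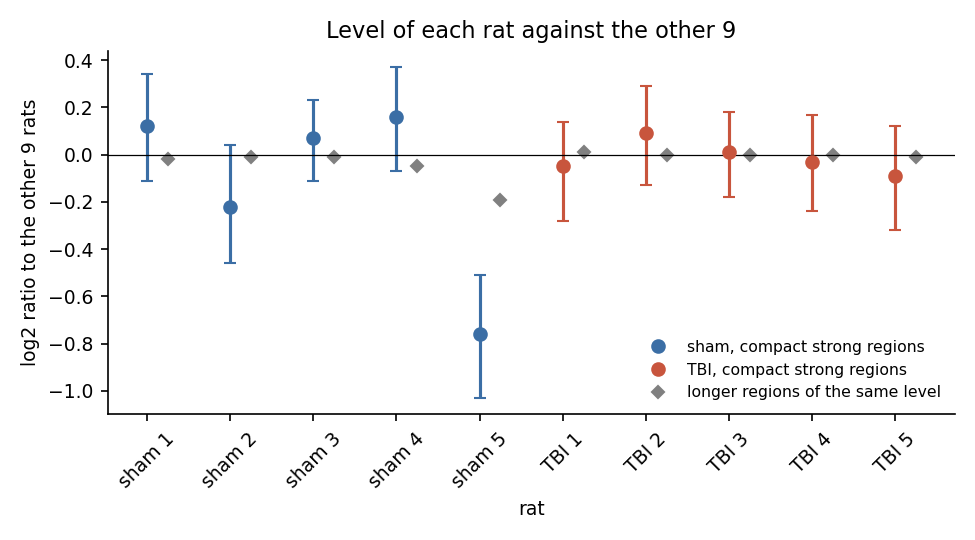
Median log2 ratio of each rat to the mean of the other 9 rats in compact strong regions chosen without that rat (circles, sham in blue and TBI in red, bars for the quartiles over regions), and in longer regions of the same level (grey diamonds). Sham 5 sits at -0.76 and sham 2 at -0.22, while the other 8 rats lie between -0.09 and 0.16.

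Departures of the rats changed steadily with region length. At the shared level of 1.5 to 2.35 CPM, regions were placed in 5 classes of length. Sham 5 was set against the other 9 rats, and each other rat against the other 8 of the 9 rats of the rule. The ratio of sham 5 was -0.74 at 400 bp or less (657 regions), -0.56 over 400 to 600 bp (11527 regions), -0.35 over 600 to 800 bp (24992 regions), -0.02 over 800 to 1200 bp (24660 regions) and 0.39 above 1200 bp (9246 regions). Sham 2 moved in the same direction, from -0.23 in the shortest class to 0.17 in the longest. TBI 5 went from -0.12 to 0.10 and TBI 1 from -0.05 to 0.06.

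The opposite course was taken by sham 4, from 0.11 to -0.24, by sham 1, from 0.09 to -0.12, and by TBI 2, from 0.09 to -0.10. Sham 3 went from 0.04 to -0.05. TBI 3, from -0.01 to 0.00, and TBI 4, from -0.05 to 0.02, moved least. Apart from TBI 3, rats that were low in compact regions were thus high in long regions of the same level, and the reverse. The compact strong regions were the short end of a course that ran through all 5 classes. Both directions occurred in each group of rats. Lengths come from regions that the authors merged over comparisons of all pairs of libraries, so a library takes part in setting them. The cause of the course was not tested.

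**Figure D4:**
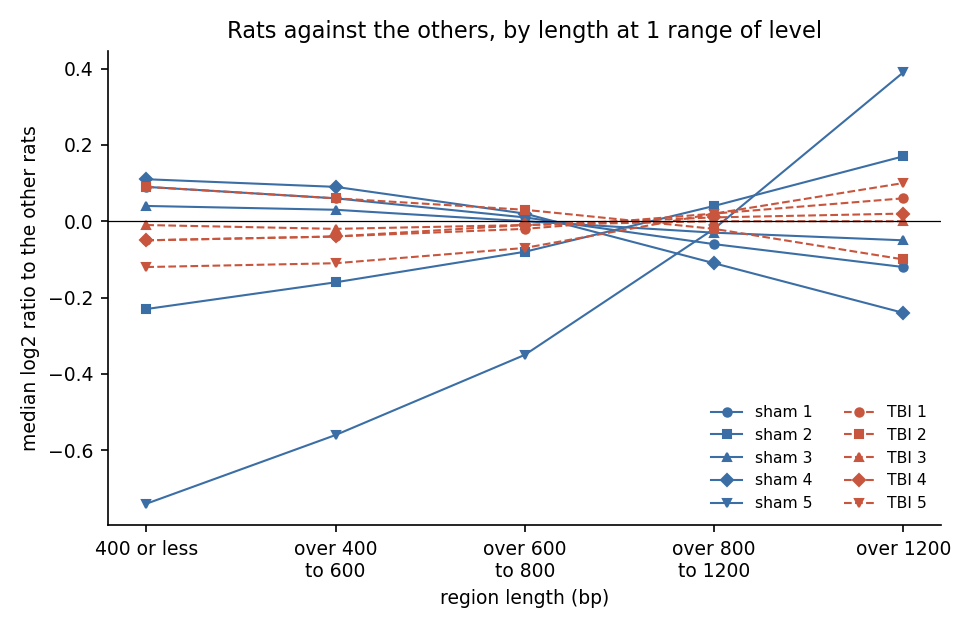
Median log2 ratio of each rat to the other rats (vertical axis) in 5 classes of region length (bp, horizontal axis) among regions of 1.5 to 2.35 CPM, with sham as solid blue and TBI as dashed red lines. The line of sham 5 rises from -0.74 to 0.39 and that of sham 2 from -0.23 to 0.17, while that of sham 4 falls from 0.11 to -0.24.

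To ask whether injury altered the captured DNA in compact strong regions, TBI rats were compared with sham rats in a fit over all tested regions. All 730 passed the filter on low tag sums. At an unadjusted p under 0.01, 1 of 730 differed (0.137%), and it was higher in TBI rats. The background over all 358249 tested regions was 0.266%, with 0.098% higher and 0.168% lower. At an unadjusted p under 0.05 there were 10 (1.37%), against a background of 2.45%. Of these, 8 were higher (1.1%) and 2 lower (0.274%), against 0.94% and 1.51% over all tested regions. At an adjusted p under 0.05 (quasi-likelihood test of edgeR, Benjamini-Hochberg adjustment) there were 0 among the 730, and the background was 0%. The share of called regions was thus no higher than in the matrix as a whole.

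The 1 region that passed was chr1:205515393-205515790, 397 bp long with 1.56 CPM. It held 10, 13, 31, 27 and 17 tags in sham 1 to sham 5 and 22, 38, 54, 28 and 34 tags in TBI 1 to TBI 5. Scaled values were 0.818, 1.0, 1.64, 1.48 and 1.15 CPM in the sham rats and 1.73, 2.74, 2.72, 1.61 and 1.76 CPM in the TBI rats. TBI 4 lay just under sham 3, so that the groups overlapped by 1 rat. Sham rats averaged 1.22 ± 0.337 CPM and TBI rats 2.11 ± 0.569 CPM (SD over 5 rats each). The log2 fold change was 0.76 ± 0.26 (SE, adjusted p = 1, quasi-likelihood test of edgeR). Without sham 5 the change was 0.73 ± 0.26 (adjusted p = 0.996). The call was lost without sham 1 (0.66), sham 2 (0.70), TBI 2 (0.66) or TBI 3 (0.65). The nearest region, chr1:205514600-205515169, lies 224 bp away and held 16, 11, 11, 21 and 15 tags in the sham rats and 11, 10, 18, 23 and 17 in the TBI rats, with no such split.

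In 3 regions (0.411%) the scaled values did not overlap between the groups, against a background of 0.502% of tested regions. All 3 were higher in TBI rats, where the background was 0.274% higher and 0.228% lower. None of the 3 had an unadjusted p under 0.01, and they were singled out after their values were seen. At chr5:19877359-19877751 sham rats averaged 1.57 ± 0.282 CPM and TBI rats 2.31 ± 0.341 CPM. Sham rats ranged from 1.16 to 1.87 CPM and TBI rats from 2.02 to 2.88 CPM. At chr2:150000940-150001338 they were 1.33 ± 0.141 and 1.98 ± 0.32 CPM, and at chr7:89590923-89591320 1.35 ± 0.243 and 1.88 ± 0.161 CPM (SD over 5 rats in each group). Log2 fold changes were 0.56 ± 0.21, 0.57 ± 0.22 and 0.48 ± 0.22 (SE).

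Without sham 5 the picture changed in direction. At an unadjusted p under 0.01, 12 of 730 regions differed (1.64%), 1 higher and 11 lower in TBI rats. The background over 358615 tested regions was 0.792%, with 0.397% higher and 0.396% lower. At an unadjusted p under 0.05 there were 42 (5.75%), against a background of 4.59%. Of these, 6 were higher (0.822%) and 36 lower (4.93%), against 2.26% and 2.33% over all tested regions. At an adjusted p under 0.05 there were 0 (quasi-likelihood test of edgeR, Benjamini-Hochberg adjustment, smallest adjusted p = 0.996), and the background was 0.0039%. Groups did not overlap in 10 regions (1.37%), against a background of 1.54%. Of these, 3 were higher (0.411%) and 7 lower (0.959%), against 0.801% and 0.742%. The region chr1:205515393-205515790 was the 1 region called both with and without this rat.

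Calls moved with other rats as well. Without sham 4, 6 of 730 regions (0.822%) had an unadjusted p under 0.01, against a background of 0.727%. All 6 were higher in TBI rats, with log2 fold changes from 0.67 to 0.94, whereas the background was 0.17% higher and 0.558% lower. None of these was among the 11 that were lower without sham 5.

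The 11 lower regions lay on 9 chromosomes, with levels from 1.52 to 3.71 CPM and log2 fold changes from -0.82 to -0.55. In 9 of them sham 5 was the lowest of all 10 rats on scaled CPM, and in 10 it was below the TBI mean. On unscaled CPM sham 5 was the lowest in 529 of all 730 regions (72.5%), so its low place was not particular to the 11. With all 10 rats the log2 fold changes of the 11 were from -0.63 to -0.36. The groups of 9 rats did not overlap in 5 of the 11. The 3 of these with the smallest p are given. At chr16:10171554-10171939 the tags were 25, 34, 35 and 49 in sham 1 to sham 4 and 17 in sham 5. The TBI rats held 19, 18, 24, 23 and 27. Without sham 5 the sham mean was 2.3 ± 0.418 CPM (SD, n = 4) and the TBI mean 1.34 ± 0.108 CPM (SD, n = 5), which gave a fitted log2 change of -0.77 ± 0.23 (SE). Sham 5, at 1.15 CPM, lay below every TBI rat, and with it the change was -0.63 ± 0.25.

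At chr6:14715604-14716000 the tags were 67, 63, 88 and 88 in sham 1 to sham 4, 31 in sham 5, and 45, 62, 69, 44 and 58 in the TBI rats. The log2 fold change was -0.55 ± 0.17 (SE) without sham 5 and -0.37 ± 0.22 with it. At chr10:64687942-64688305 the tags were 30, 27, 42 and 45, then 13 in sham 5, and 14, 26, 34, 21 and 23 in the TBI rats. The log2 fold change was -0.70 ± 0.23 without sham 5 and -0.51 ± 0.27 with it. In both, the 4 other sham rats lay above the TBI rats and sham 5 below them.

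Over all 730 regions, the median log2 fold change was 0.04 with all rats, with 5th and 95th percentiles of -0.32 and 0.39, and 425 regions (58.2%) were above 0. Without sham 5 it was -0.09, with 258 (35.3%) above 0. The medians of the longer regions of the same level were -0.01 and 0.00. No region reached a log2 fold change of 1 in either direction with all rats. The within-group SD of the rats' median log2 CPM over the regions was 0.284 with all rats and 0.125 without sham 5, so both medians were smaller in size than the SD between rats.

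**Figure D5:**
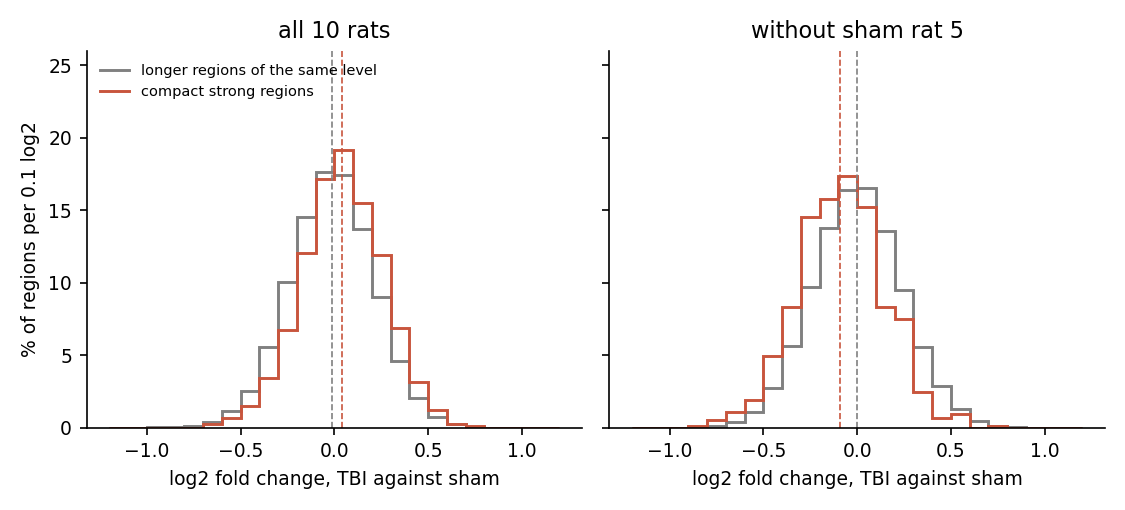
Distribution of fitted log2 fold changes (TBI against sham, horizontal axis) as % of regions per 0.1 log2 (vertical axis), for compact strong regions (red) and longer regions of the same level (grey), with all 10 rats and without sham 5. Dashed lines are medians, and that of the compact strong regions is 0.04 with all rats and -0.09 without sham 5.

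The direction of the comparison also changed with the length of regions. These fold changes come from the same rats, regions and classes of length as the ratios above, so they are not a separate observation. Without sham 5, the median log2 fold change at 1.5 to 2.35 CPM was -0.08 at 400 bp or less, -0.07 over 400 to 600 bp, -0.03 over 600 to 800 bp, 0.03 over 800 to 1200 bp and 0.07 above 1200 bp. With all rats the order was turned, from 0.05 in the shortest class to -0.11 in the longest. Without sham 5, regions with an unadjusted p under 0.01 were 1 higher and 9 lower at 400 bp or less, and 16 higher and 92 lower over 400 to 600 bp. Over 600 to 800 bp they were 86 and 125, and over 800 to 1200 bp 120 and 75. Above 1200 bp they were 62 higher and 9 lower. From the shortest class to the longest these calls made up 1.52%, 0.937%, 0.844%, 0.791% and 0.768% of the regions, against a background of 0.792%. With all rats the shares were 0.152%, 0.26%, 0.268%, 0.3% and 0.346%, against 0.266%, so the shortest class was then the least called. The excess of lower calls among compact strong regions without sham 5 was thus shared with the next class of length and turned in the longest. The part of the rats' course with length in these calls was not tested.

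The compact strong regions were spread over the genome, somewhat apart from other regions. The median distance to the nearest region was 663 bp (quartiles 270 and 1606 bp), compared with 445 bp for the longer regions of the same level. A neighbour within 100 bp was found for 62 (8.49%), against 14.9% of the longer regions, and 17 (2.33%) had none within 10 kb, against 0.635%. In 222 (30.4%) the nearest region was itself at or above 1.5 CPM, against 32.8%.

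All 20 autosomes held compact strong regions, from 15 on chr19 and on chr20 to 77 on chr2. Chr2 held 10.5% of them, 8.42% of all autosomal regions and 7.12% of those at or above 1.5 CPM. Chr12 held 3.84% of them, 2.5% of all and 3.91% of those at or above 1.5 CPM, so its surplus over all regions was not seen against strong regions. Chr19 held 2.05% of them, 2.92% and 3.51%. In the first 1 Mb of chromosomes lay 6 (0.822%), against 0.353% of the longer regions and 0.452% of all autosomal regions. In the 1 Mb before the last region lay 4 (0.548%), against 0.376% and 0.5%. Of the 730, 39 shared a bin of 100 kb with another, in 18 bins of 2 and 1 bin of 3.

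The bin of 3 was on chr17. Its first region, chr17:68814768-68815139, held 42, 29, 71, 74 and 9 tags in the sham rats and 21, 32, 28, 36 and 48 in the TBI rats. It was among the 11 that were lower without sham 5, with a log2 fold change of -0.78 ± 0.21 (SE, adjusted p = 0.996, edgeR's quasi-likelihood test), and sham 2 lay among the TBI rats. The second, chr17:68828658-68829056, held 39, 26, 59, 80 and 32 tags and 38, 39, 51, 36 and 58 tags. The third, chr17:68845318-68845656, held 35, 23, 31, 35 and 9 tags and 28, 41, 52, 36 and 25 tags. Their log2 fold changes without sham 5 were -0.26 ± 0.20 and 0.13 ± 0.24, so the regions of this bin did not share a direction.

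Another bin, on chr1, held a close pair. The region chr1:33135088-33135434 had 37, 15, 33, 51 and 7 tags in the sham rats and 26, 42, 35, 26 and 32 in the TBI rats. The region chr1:33138413-33138793 had 36, 14, 28, 34 and 6 tags and 25, 20, 33, 24 and 21 tags. Between them lay chr1:33136040-33137474, a longer region, with 180, 103, 209, 261 and 53 tags in the sham rats and 141, 176, 185, 182 and 155 in the TBI rats. In all 3, sham 5 was lowest on the CPM scale and sham 2 low among the other sham rats, and neither of the pair differed between the groups (log2 fold changes of 0.10 ± 0.34 and -0.04 ± 0.35, SE).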

How the data were processed

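MBD sequencing was done on 10 rats, 5 sham and 5 TBI, grouped by the treatment label. Fewer sham rats are listed for methylation in the study's methods, and which was left out, if any, is not stated. As the labels and methods state, the authors mapped single reads to RN4 by BWA. MACS was run between every pair of samples, and its regions were merged with bedtools. Duplicate reads at a location were removed. The deposited values are raw tag counts per region and rat, with no scaling. The matrix had 10 sample columns, all used, and 0 others. Regions whose tag sum reached the 50th percentile (117 tags with 10 rats, 100 with 9) entered edgeR 4.0.16 (R 4.3.3), by glmQLFit and glmQLFTest with TMM and trended dispersion, as tested on simulated data first. Adjusted p-values are Benjamini-Hochberg values over every tested region. A call is an unadjusted p under 0.01, as in the study's methods. Scaled CPM is the number of tags per 1000000 tags of that library in the tested regions alone, divided by the TMM factor. SDs of log2 CPM used a prior count of 2, and ratios a pseudocount of 0.5. Standard errors of log2 fold changes came from the F statistic. Other steps ran in Python 3.11.15 (numpy 2.4.6, pandas 2.3.3). Limits of a count of 0 cover counting error only. Each rat is 1 animal, so spread between rats is biological and technical.

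The compact strong regions, the comparison regions and the rule for naming regions were chosen with earlier results of these data known. Regions named were the 8 strongest, those with the smallest p, up to 5 in each direction with all rats and up to 3 without sham rat 5, first those without overlap, the 3 most and 3 least variable, those at the limits, those of the 2 fullest 100 kb bins and the 2 extremes of sham rat 5 at either end. The 3 regions whose groups did not overlap with all rats, and 4 others of 4-fold range, fall outside this rule and were chosen after their values were seen. Alternatives were other scalings (DESeq2 size factors, total tags, loess offsets), filters, tests (edgeR's exact test and DESeq2 1.42.0), limits of the rule and leaving out each rat. Counts by class of length and means without sham rat 5 were added after seeing the data.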

Additional observations from a re-analysis of the deposited data

Results flagged for a closer look

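Examined were 52 groups of 5 rats, 46 at the 23 regions named by the rule and 6 for the share of tags, the median level and the ratio to the other rats. Of these, 3 held a rat far from the other 4 of its group by Dixon's 95% limit. Chance alone would give 2.6 if the groups were independent and not picked by their values. The groups share the same rats, and many of the regions were picked by extreme values, so 2.6 does not strictly apply. At chr17:15069599-15069871, sham 1 stood highest of the sham rats with 64.5 scaled CPM, and the next was 20.5. TBI 1 and TBI 5 were also high at this region. At chr6:14715604-14716000, sham 5 was lowest of the sham rats with 2.1 scaled CPM, and the next was 4.65. At chr10:64687942-64688305, sham 5 was again lowest with 0.882 scaled CPM, and the next was 2.08. These last regions were picked from a comparison without sham 5, in which the other sham rats were high.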

How the results depend on the processing

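The single call with all rats was kept with total tags alone, size factors of DESeq2, loess offsets, no filter, 10 tags in every rat, the DESeq2 Wald test and edgeR's exact test, each of which gave a count of 1. Shares over all tested regions are not given for these settings, so the count describes the compact strong regions alone. The count was 10 at an unadjusted p under 0.05 and 0 at an unadjusted p under 0.001. With other limits of the rule it was 0 of 22 regions at 300 bp or less, 15 of 4613 at 500 bp or less, 13 of 3773 at 1 CPM or more, 0 of 183 at 2 CPM or more and 0 of 597 with the level taken over all 10 rats. These counts come from the main fit, in which 0.266% of all tested regions were called. Leaving out 1 rat at a time gave between 0 and 12 calls. There were 12 without sham 5, 6 without sham 4, 2 each without sham 3, TBI 1, TBI 4 or TBI 5, and 0 without sham 1, sham 2, TBI 2 or TBI 3. Over all tested regions the share called was 0.792% without sham 5 and 0.727% without sham 4, against 1.64% and 0.822% of the 730, and from 0.171% to 0.433% without each other rat. The count of regions without overlap ran from 3 to 10 in the same way, with 10 without sham 4 or without sham 5 and 8 without sham 3. Those are 1.37%, 1.37% and 1.1% of the 730, while 1.28%, 1.54% and 0.922% of all tested regions did not overlap, so the share rose over all tested regions too. Without sham 5, total tags, loess offsets and the DESeq2 Wald test gave 10, 11 and 8 calls in place of 12. Shares over all tested regions are not given for these 3 settings, so these counts describe the 730 regions alone. At chr1:205515393-205515790 the log2 fold change lay between 0.65 and 0.90 with 1 rat left out and lost its call without sham 1, sham 2, TBI 2 or TBI 3. At an adjusted p under 0.05 there were 0 of the 730 regions in the settings with all rats, with each rat left out and with these 3 alternatives without sham 5. The median log2 fold change lay between -0.09 (without sham 5) and 0.13 (without sham 4), and was 0.06 with total tags alone. The median ratio of sham 5 was -0.97 with a pseudocount of 0.1 and -0.65 on scaled CPM. In bins of 1 Mb, 211 regions shared a bin. The causes were not tested. No paired analysis was possible because the rats carry separate numbers in each group. Over the 9 rats without sham 5 the median was 31.3 tags per rat. Counting error alone then gives an SD of 0.258 on the log2 scale, so that small changes at 1 region were not detectable at this depth.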
